A study of Mus musculus with 30 samples.

Results

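New H3K4me3 peaks of pro-B cells were the peaks of the RAG1-/- H3K4me3 list that shared not even 1 bp with a peak of the EBF-/- H3K4me3 list. They numbered 4487 of the 13205 RAG1-/- peaks (34.0%), and the other 8718 peaks are called shared. The members were chosen by the H3K4me3 peak calls of both cell types, so H3K4me3 presence or absence is a description and was not tested. The RAG1-/- pro-B cells came from C57BL/6 mice, were enriched from femoral marrow by B220 and were then grown for 10 d with SCF and IL-7. They are committed to the B lineage but cannot cut antigen receptor genes. The EBF-/- pre-pro-B cells, also C57BL/6, lack EBF1 and were kept over a layer of S17 stromal cells with FLT3 ligand, SCF and IL-7. E2A-/- pre-pro-B cells kept in the same way entered the array fit only. Genotype, stage, culture and stromal layer differ together between RAG1-/- and EBF-/- cells and cannot be told apart. Each histone mark and factor had 1 chromatin immunoprecipitation sequencing (ChIP-seq) library in each cell type, and RNA had 2 array samples in each genotype.

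H3K4me3, trimethylation of lysine 4 of histone H3, marks the start sites of genes that are transcribed or ready to be. H3K4me1 and H3K4me2 cover enhancers and the flanks of start sites, acetylation of lysines 9 and 14 (H3K9/14ac, called H3ac) goes with activity, and H3K27me3 is the repressive Polycomb mark. Commitment to the B lineage depends on the transcription factors E2A and EBF1, FOXO1 works with them in pro-B cells, and CTCF organises chromatin loops. Without EBF1, lymphoid precursors stop before the surrogate light chain genes and the signalling chains of the pre-B cell receptor are switched on.

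The peak lists are on genome build mm8, whose sequence was not used here, so promoters of genes linked to new peaks are shown from RefSeq (GRCm38.p6) instead. Of the gene lists, the pre-B receptor list was taken first and the B-lineage factors next, highest H3K4me3 score first, because these genes carry the expression result given further on. Each line runs 5′ to 3′ on the gene's strand from 250 bases before to 50 bases after the start. Capitals mark the letters CCCNNGGG (the core of EBF1 sites, which reads the same on both strands), CAGNTG (E-box letters that E2A can bind, searched on both strands) and GTAAACA (FOXO letters, both strands).
Vpreb3 (chr10:75948050-75948349, plus strand): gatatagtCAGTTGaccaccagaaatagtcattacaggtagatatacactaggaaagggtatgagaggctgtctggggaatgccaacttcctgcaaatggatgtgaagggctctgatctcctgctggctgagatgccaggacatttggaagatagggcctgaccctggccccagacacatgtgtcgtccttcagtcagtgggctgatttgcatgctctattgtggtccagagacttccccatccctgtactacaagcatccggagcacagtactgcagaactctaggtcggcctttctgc
Cd79a (chr7:24897247-24897546, plus strand): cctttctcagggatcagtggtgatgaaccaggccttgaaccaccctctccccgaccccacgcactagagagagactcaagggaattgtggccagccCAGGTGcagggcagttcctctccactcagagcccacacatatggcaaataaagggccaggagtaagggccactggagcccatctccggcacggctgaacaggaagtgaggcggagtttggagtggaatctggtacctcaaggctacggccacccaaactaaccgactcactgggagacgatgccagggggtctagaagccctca
Igll1 (chr16:16863936-16864235, minus strand): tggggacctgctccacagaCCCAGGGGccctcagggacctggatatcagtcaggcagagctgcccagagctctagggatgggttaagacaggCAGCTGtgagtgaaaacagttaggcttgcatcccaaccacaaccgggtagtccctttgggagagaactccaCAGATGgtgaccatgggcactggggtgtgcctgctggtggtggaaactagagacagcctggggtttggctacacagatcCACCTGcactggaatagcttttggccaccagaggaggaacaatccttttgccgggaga
Vpreb2 (chr16:17980315-17980614, plus strand): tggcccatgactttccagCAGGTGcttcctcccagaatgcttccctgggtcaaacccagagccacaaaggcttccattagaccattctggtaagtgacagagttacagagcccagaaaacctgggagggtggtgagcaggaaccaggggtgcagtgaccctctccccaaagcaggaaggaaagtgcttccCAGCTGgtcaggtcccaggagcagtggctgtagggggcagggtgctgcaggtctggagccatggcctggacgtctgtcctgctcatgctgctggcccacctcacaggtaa
Sox4 (chr13:28953650-28953949, minus strand): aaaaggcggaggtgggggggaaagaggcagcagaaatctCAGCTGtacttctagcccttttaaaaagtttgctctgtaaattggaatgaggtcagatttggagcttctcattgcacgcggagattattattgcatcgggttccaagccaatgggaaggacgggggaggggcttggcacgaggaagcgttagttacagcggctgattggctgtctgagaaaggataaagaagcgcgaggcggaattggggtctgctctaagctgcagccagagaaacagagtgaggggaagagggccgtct
Irf4 (chr13:30748983-30749282, plus strand): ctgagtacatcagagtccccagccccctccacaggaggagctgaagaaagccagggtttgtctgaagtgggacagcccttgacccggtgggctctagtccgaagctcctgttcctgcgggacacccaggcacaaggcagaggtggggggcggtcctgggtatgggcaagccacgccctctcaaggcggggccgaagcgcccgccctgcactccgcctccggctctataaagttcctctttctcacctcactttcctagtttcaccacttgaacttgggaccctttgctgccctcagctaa
Igll1, the gene for the lambda5 part of the surrogate light chain, held CCCNNGGG at 1 place and CAGNTG at 3 places. The promoters of Vpreb3, Cd79a and Sox4 held CAGNTG once each, that of Vpreb2 held it at 2 places, and that of Irf4 held none of the 3 motifs. None of the 6 held GTAAACA. Cd79b is named only.

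Over all 32851 promoters of that table, 13.7% held CCCNNGGG, 51.4% held CAGNTG and 3.65% held GTAAACA. Among the 2170 promoters of genes linked to new peaks the shares were 18.8%, 49.9% and 2.76% in that order. Of the 5508 promoters of genes linked to shared peaks, 937 held CCCNNGGG, 42.7% CAGNTG and 2.6% GTAAACA. The same 2170 promoters had a median of 16 CpG pairs (quartiles 7 and 26), against 21 (13 and 28) for shared peaks and 7 over the whole table. Promoters of genes with new peaks thus lay between shared ones and the whole table in CpG content, while their median GC content (59.7%) was close to the 60.3% for shared peaks. A match is only a run of letters in this window, and the window need not coincide with the peak.

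Peak scores are whole numbers given by the authors' peak caller, with an unstated scale. They ran between 17 and 735 (median 156) in the RAG1-/- H3K4me3 list and between 11 and 175 (median 32) in the EBF-/- list, so scores were compared only within a list. The new peaks had a median score of 38 (17 to 485), against 203 (17 to 735) for shared peaks. Most of the new set was therefore the weak end of the longer list. Split by score into deciles from the strongest (decile 1) to the weakest (decile 10), the RAG1-/- list held 53 new peaks of 1320 (4.02%) in decile 1, 15.1% in decile 6, 77.2% in decile 8 and 96.3% in decile 10.

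**Figure D1:**
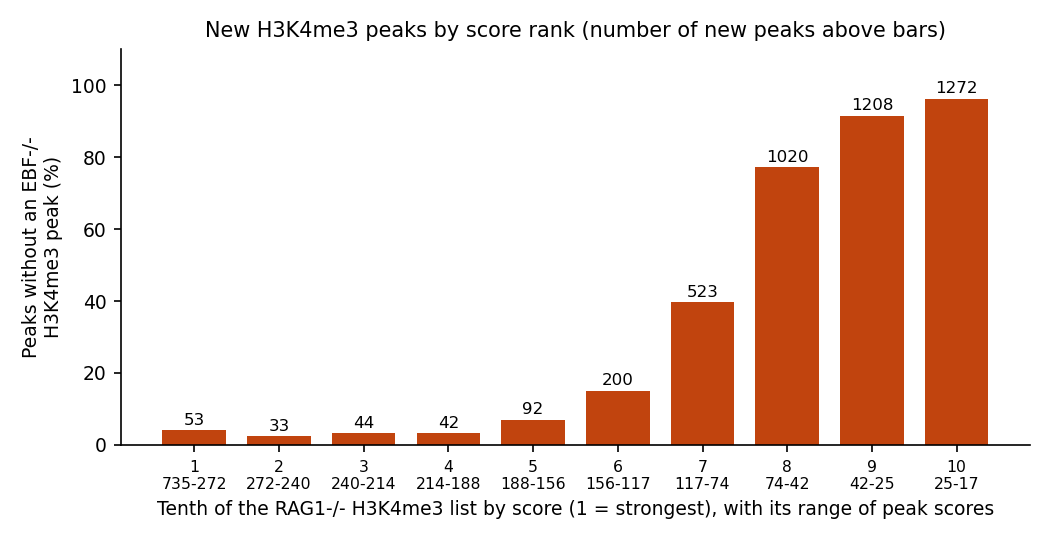
Share of RAG1-/- H3K4me3 peaks that had no EBF-/- H3K4me3 peak, by decile of the RAG1-/- list ranked on peak score (strongest at the left, score range under each bar). The share was at most 6.97% in the first 5 deciles and reached 96.3% in the weakest, and the number over each bar is the count of new peaks.

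The EBF-/- list held 9064 peaks. When the RAG1-/- list was cut to the same length, at a score of 79, 891 peaks stayed new, which is 9.83% of the cut list and 19.9% of the new set. These 891 rank-matched new peaks had a median score of 119. Below the cut, 3596 of 4141 peaks (86.8%) were new. Shared peaks made up 66.0% of the RAG1-/- list but 96.2% of the EBF-/- list, and 346 EBF-/- peaks (3.82%) had no RAG1-/- peak. With both lists at 9064 peaks the shared part was 90.2% of each, which leaves 891 unshared peaks on either side. These last 2 counts are equal by construction, so rank matching cannot show whether more peaks were gained than lost.

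All H3K4me3 peaks were 1000 bp wide and at least 2620 bp apart within the RAG1-/- list, so that 1 start site gave 1 peak and a small shift of its centre could turn a shared peak into a new one. This was rare. Of the new peaks, 73 (1.63%) lay within 1 kb of an EBF-/- peak, 482 lay between 1 and 10 kb away, 1656 between 10 and 50 kb and 2276 (50.7%) farther. Of the 73 near cases 69 belonged to the 891 rank-matched new peaks, Myb (gap of 222 bp, score 356), Slc1a5 (323 bp, score 433) and Syvn1 (170 bp, score 392) among them. A shift can also exceed 1 kb, and the strongest new peak, at S1pr4, lay 1870 bp from an EBF-/- peak. Just inside the limit, new peaks lay 25, 27, 33, 60 and 77 bp from an EBF-/- peak, and just outside it shared peaks overlapped one by 3, 4, 9, 17 and 19 bp. On chromosome Y 12 of 15 RAG1-/- peaks were new and the EBF-/- list held 4 peaks. Transcripts of the Y-linked gene Eif2s3y stood at 12.48 and 3.38 in the RAG1-/- RNA samples and at 11.74 and 11.38 in the EBF-/- RNA samples (log2 signal), and the part of sex in these 12 peaks was not tested. Peaks of a mock immunoprecipitation of lymphoid cells overlapped 20 new peaks (0.446%) and 10 shared peaks (0.115%).

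At most of the new peaks EBF-/- cells had a peak of H3K4me2, H3ac or H3K4me1. H3K4me2 was called in EBF-/- cells at 3362 new peaks (74.9%, Wilson 95% interval 73.6 to 76.2%), against 80.5% of shared peaks. H3ac was called at 2135 new peaks (47.6%, 46.1 to 49.0%), against 97.6% of shared peaks (97.2 to 97.9%). H3K4me1 was called at 14.4% of new and 6.8% of shared peaks, and H3K27me3 at 115 new peaks (2.56%) and 39 shared peaks (0.447%). Intervals cover counting error over peaks of 1 library pair and not the spread between cultures, and no test over regions was made. The split into new and shared peaks rests on H3K4me3 of the same EBF-/- cells. How far that choice sets the gaps in other EBF-/- marks, H3ac among them, was not tested.

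The same differences were seen at equal list length. There H3ac in EBF-/- cells covered 61.4% of new peaks, against 97.9% of shared ones, H3K4me2 72.4% against 80.2%, H3K4me1 13.0% against 6.52% and H3K27me3 2.81% against 0.33%. Within single deciles the H3ac gap stayed: in decile 7 (scores 74 to 117), which held 523 new and 797 shared peaks, 66.7% of new and 98.2% of shared peaks had H3ac in EBF-/- cells. H3K4me2 differed less in that decile, with 80.3% of new and 89.8% of shared peaks. In the strongest deciles, by contrast, H3K4me2 differed more. It was called at 41.5% of new and 58.8% of shared peaks in decile 1, and at 30.3% and 75.5% in decile 2. The shares were 52.3% and 82.1% in decile 3, and 64.3% and 84.8% in decile 4. The median score of the H3ac peak, where there was one, was 32 at new and 118 at shared peaks, both in the EBF-/- list. These H3ac peaks were weak: with the upper part of the EBF-/- H3ac list by score alone, 3.7% of new peaks had H3ac, and the like value for H3K4me1 was 6.33%.

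**Figure D2:**
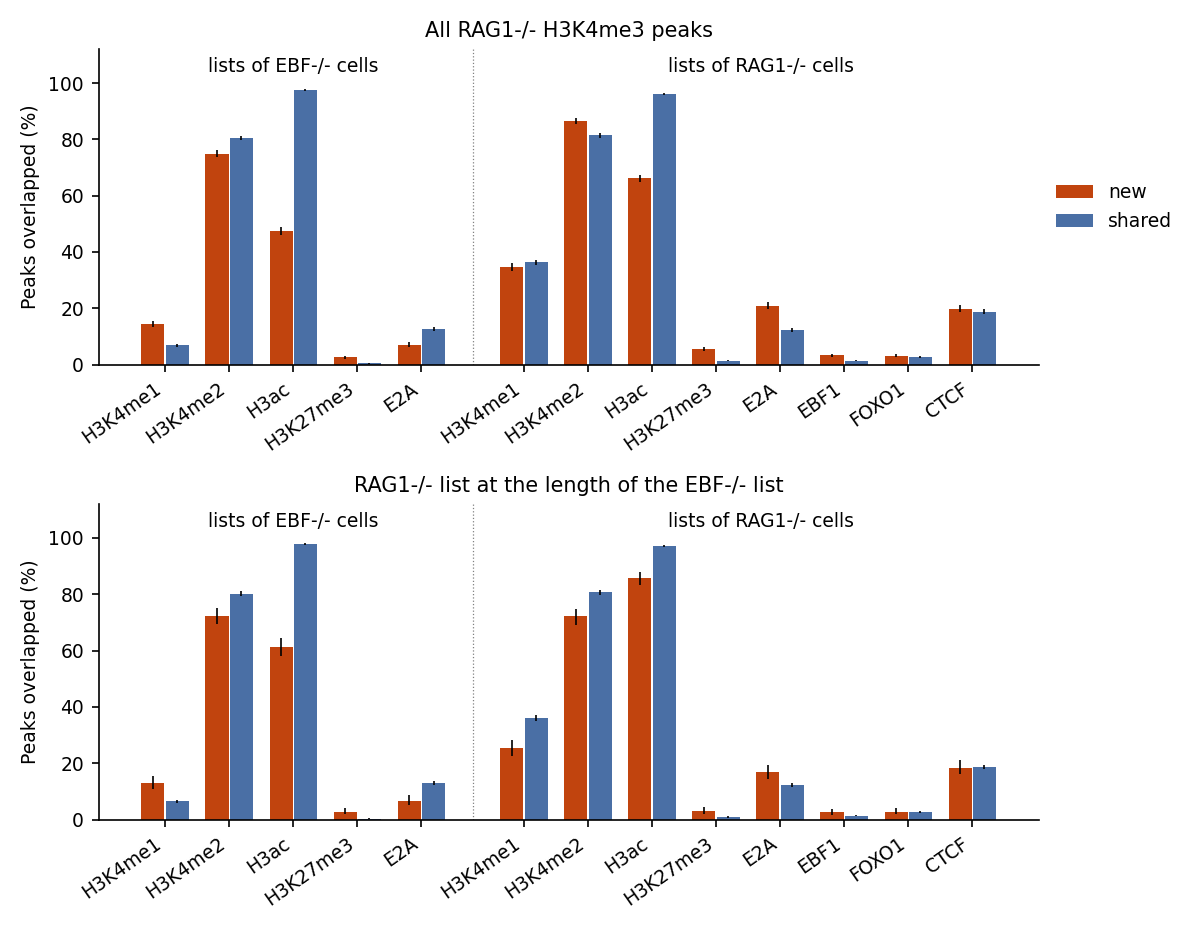
Share of new and shared RAG1-/- H3K4me3 peaks that overlapped a peak of each mark or factor, for the whole list (upper panel) and for the list cut to the length of the EBF-/- list (lower panel). Bars are percentages with Wilson 95% intervals. H3ac in EBF-/- cells is the mark with the widest gap, 47.6% at new and 97.6% at shared peaks. How far the choice of peaks by EBF-/- H3K4me3 sets this gap was not tested.

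Sorted by the marks of EBF-/- cells, the new peaks fell into a few states. H3ac together with H3K4me2 was present at 2002 (44.6%), against 79.9% of shared peaks. H3K4me2 alone was present at 1158 (25.8%), against 52 shared peaks (0.596%). H3K4me2 with H3K4me1 and no H3ac was present at 202 (4.5%), against 4 shared peaks, and H3K4me1 alone at 23, against 4. H3ac without H3K4me2 was found at 133 (2.96%), against 17.7% of shared peaks. None of the 3 marks was called at 969 new peaks (21.6%, 20.4 to 22.8%), against 150 shared peaks (1.72%). With marks within 1 kb also counted, 874 new peaks (19.5%) and 107 shared peaks (1.23%) had none. Among rank-matched peaks the unmarked state covered 181 new peaks (20.3%), nearly the same share as in the whole set, whereas H3K4me2 alone covered 14.8%.

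**Figure D3:**
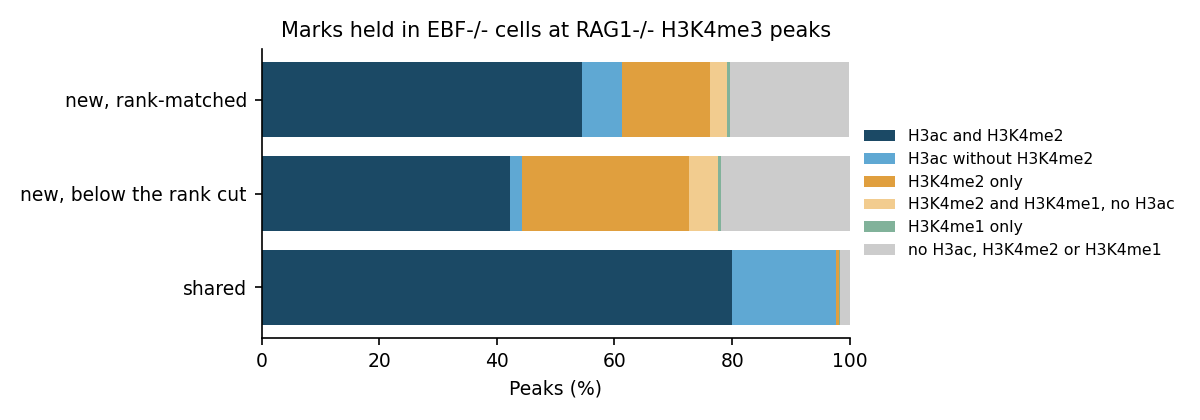
Marks that EBF-/- cells held at RAG1-/- H3K4me3 peaks, as the share of peaks in each of 6 states, for rank-matched new peaks, new peaks below the rank cut and shared peaks. Unmarked peaks (grey) were 20.3% of rank-matched new peaks, 21.9% of those below the cut and 1.72% of shared peaks.

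H3K27me3 marked few of these sites in either cell type. It was called only in EBF-/- cells at 76 new peaks, in both cell types at 39 and only in RAG1-/- cells at 210, which is 4.68% of the new set, against 1.31% of shared peaks. Among rank-matched new peaks it was called only in RAG1-/- cells at 25. Of the 27 rank-matched shared peaks with H3K27me3 in EBF-/- cells, 17 had none called in RAG1-/- cells. Of the 25 rank-matched new peaks with H3K27me3 in EBF-/- cells, 23 had none called in RAG1-/- cells. Scd1, which encodes a fatty acid desaturase, had such a peak, with an H3K27me3 score of 22 in the EBF-/- list and an H3K4me3 score of 233.

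In RAG1-/- cells 86.5% of new and 81.4% of shared peaks overlapped H3K4me2, and 34.8% and 36.3% overlapped H3K4me1. At equal list length the order for H3K4me2 turned, with 72.1% of new and 80.7% of shared peaks, and H3K4me1 covered 25.3% of new and 36.1% of shared peaks. H3ac covered 66.1% of new and 96.1% of shared peaks, or 85.9% and 97.2% at equal list length. It was present in RAG1-/- but not EBF-/- cells at 1250 new peaks (27.9%), against 108 shared peaks (1.24%), and in EBF-/- but not RAG1-/- cells at 418 (9.32%) and 238 (2.73%). Peaks that had H3K4me2 alone in EBF-/- cells had H3ac in RAG1-/- cells in 642 of 1158 cases (55.4%), and unmarked ones in 455 of 969.

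Of the factors mapped in RAG1-/- cells, E2A and EBF1 were called at a larger share of new than of shared peaks over the whole list. For E2A the gap varied along the list and was widest in decile 10, which held only 49 shared peaks. E2A shares at new and shared peaks were 13.2% and 13.1% in decile 1, and 23.8% and 14.3% in decile 4. They were 18.0% and 8.28% in decile 7, and 25.8% and 4.08% in decile 10. E2A peaks overlapped 939 new H3K4me3 peaks (20.9%, 19.8 to 22.1%), against 1065 shared peaks (12.2%, 11.5 to 12.9%). EBF1 peaks overlapped 147 new peaks (3.28%) and 122 shared peaks (1.4%). FOXO1 was called at 3.1% of new and 2.6% of shared peaks, and CTCF at 19.9% of new and 18.8% of shared peaks. Rank matching narrowed the E2A shares to 16.7% of new and 12.4% of shared peaks, left EBF1 at 2.58% and 1.35%, and gave 2.69% and 2.66% for FOXO1 and 18.4% and 18.6% for CTCF. Most new peaks, 3456 (77.0%), held none of E2A, EBF1 and FOXO1, against 85.1% of shared peaks. The factor lists differ in length (11846 peaks for E2A, 1402 for EBF1, 1575 for FOXO1 and 38838 for CTCF), so that shares do not rank the factors.

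E2A was also mapped in EBF-/- cells, where its list was shorter (4531 peaks). At new peaks it was called in RAG1-/- cells only in 695 cases, in both cell types in 244 and in EBF-/- cells only in 76. At shared peaks the counts were 709, 356 and 746, so E2A peaks seen in EBF-/- cells alone were about as many as those of RAG1-/- cells alone. EBF1 and E2A met at 101 of the 147 new peaks with EBF1 (68.7%), against 37 of 122 shared ones (30.3%). Unmarked new peaks held E2A in 25.8% and EBF1 in 5.99% of 969 cases, while those with H3ac and H3K4me2 in EBF-/- cells held E2A in 20.2% and EBF1 in 2.4% of 2002 cases. CTCF ran the other way, with 13.9% and 24.8%. Of the 23 new peaks that had H3K4me1 alone in EBF-/- cells, 13 held E2A and 7 held EBF1 in RAG1-/- cells.

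Peaks with E2A, EBF1 and FOXO1 together numbered 12 among new and 3 among shared peaks. Of the 6 measured genes linked to the 12, 3 were higher in RAG1-/- cells, 1 was lower and 2 were not called: Tmem108 differed by 0.14 (limma adjusted p = 0.53) and LOC546100 by 1.75 (adjusted p = 0.314). Nup160, a nuclear pore gene, was higher by 0.83 ± 0.11 (adjusted p = 0.00545), a call lost without EBF-/- replicate 2 (0.0616). The one with the highest H3K4me3 score (232) lay at Mzb1, the gene of an endoplasmic reticulum protein of B cells, and was the only one of the 12 within the rank cut. Its factor scores were 66 for E2A, 20 for EBF1 and 9 for FOXO1, and EBF-/- cells had H3K4me2 (score 41) and E2A (score 20) there but no H3ac. Mzb1 signal was 15.10 and 14.92 in RAG1-/- cells, against 9.22 and 9.37 in EBF-/- cells (log2 signal), a difference of 5.76 ± 0.62 (SE, n = 2 each; limma adjusted p = 0.00341). Lhpp, a phosphatase gene, had the 3 factors at a peak of score 54 that also carried H3ac and H3K4me2 in EBF-/- cells. Its signal was 13.18 and 12.89 in RAG1-/- cells, against 10.31 and 10.30 in EBF-/- cells (difference 2.73 ± 0.14, SE; limma adjusted p = 0.00073). In both genes the 2 groups did not overlap, a weak criterion with 2 samples each, and the share of all genes without overlap was not counted. Snx9 moved in the opposite direction, with 10.59 and 10.42 in RAG1-/- cells, against 11.38 and 11.43 in EBF-/- cells (-0.90 ± 0.15, SE; limma adjusted p = 0.0105), a call that was lost without EBF-/- replicate 1 (adjusted p = 0.0697) or 2 (0.0844).

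A peak was linked to the gene of the nearest named array probe within 20 kb, by the array design's own mm8 positions. Array probes of this kind usually lie toward the 3′ ends of transcripts, so the start site of a long gene can go unlinked or be linked to a neighbour, and the name promoter could not be checked against an annotation of this build. Of the new peaks, 2442 (54.4%) were linked, against 72.4% of shared peaks, with median probe distances of 16850 and 8991 bp. The 2442 peaks gave 2254 genes, of which 1572 passed the filter on dim probes. Array signals are log2 values after quantile normalization, and differences are RAG1-/- minus EBF-/- with their standard error from 1 limma fit over 6 samples (2 in each group). The p-values measure the spread between these samples, which may be technical, since no label says that they came from separate cultures or animals. In a bulk sample fewer cells of a type and less RNA in each cell cannot be told apart.

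The RNA samples were not all alike. RAG1-/- replicate 2 exceeded replicate 1 by a median of 1.27 over 12 measured myeloid genes and 3.49 over 2 mast cell genes, and carried Xist instead of Y-linked transcripts. E2A-/- replicate 1, which was hybridised on the same array as RAG1-/- replicate 1, had pro-B transcripts that E2A-/- replicate 2 had far less of (Vpreb3 14.35 and 3.84, Igll1 11.13 and 4.33). In this comparison it entered the shared estimate of the spread and, through the dye term, the difference itself. Igll1 differed by 10.65 with it and by 10.53 without it. The gap between the 2 E2A-/- samples also enters the spread in fits without 1 RAG1-/- or EBF-/- sample. Ebf1 stood at 12.56 and 12.39 in RAG1-/- cells and at 10.86 and 10.9 in EBF-/- cells, and Rag1 at 10.54 and 11.11 and at 9.79 and 9.58. The place of these probes relative to the deleted parts is not stated, so neither checks a label. Of the pre-B receptor list 11 of 14 measured genes were higher in RAG1-/- cells, and of the progenitor list 9 of 11 were lower. Of all genes tested 21.1% were higher and 22.9% lower.

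Genes linked to new peaks were more often higher in RAG1-/- cells than genes at large. Of 1572 measured, 449 were called higher (28.6%) and 355 lower (22.6%), against 21.1% higher and 22.9% lower among all 12665 genes tested (limma, adjusted p under 0.05), with median differences of 0.18 and 0.04. For rank-matched new peaks 187 of 436 genes were higher (42.9%) and 69 lower (15.8%), with a median of 0.47. For new peaks below the cut 24.3% of 1184 genes were higher and 25.1% lower, both near the shares of all genes. Genes linked to shared peaks were higher in 19.8% and lower in 24.0% of 5025 cases, with a median of -0.02. The share of higher calls was thus larger for the rank-matched new peaks than for those below the cut. These shares are a description with no test over the list. Without EBF-/- replicate 1 the new set had 229 genes higher (14.6%) and 175 lower (11.1%), against 8.39% and 9.85% of all genes, and without EBF-/- replicate 2 it had 259 higher (16.5%) and 187 lower (11.9%), against 9.17% and 10.8% of all genes.

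The order held along the list. In decile 1, 22 of 35 genes with new peaks were higher in RAG1-/- cells (62.9%), against 24.1% of 906 genes with shared peaks. In decile 7 the shares were 37.3% and 16.1%, and in decile 9 they were 20.3% of 394 and 11.4% of 44. Genes called lower ran the other way, with 25.9% of 398 genes for new and 61.5% of 26 genes for shared peaks in decile 10. A gene with peaks of both kinds entered both sets; of the 1163 measured genes linked to new peaks only, 30.3% were higher and 20.6% lower.

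**Figure D4:**
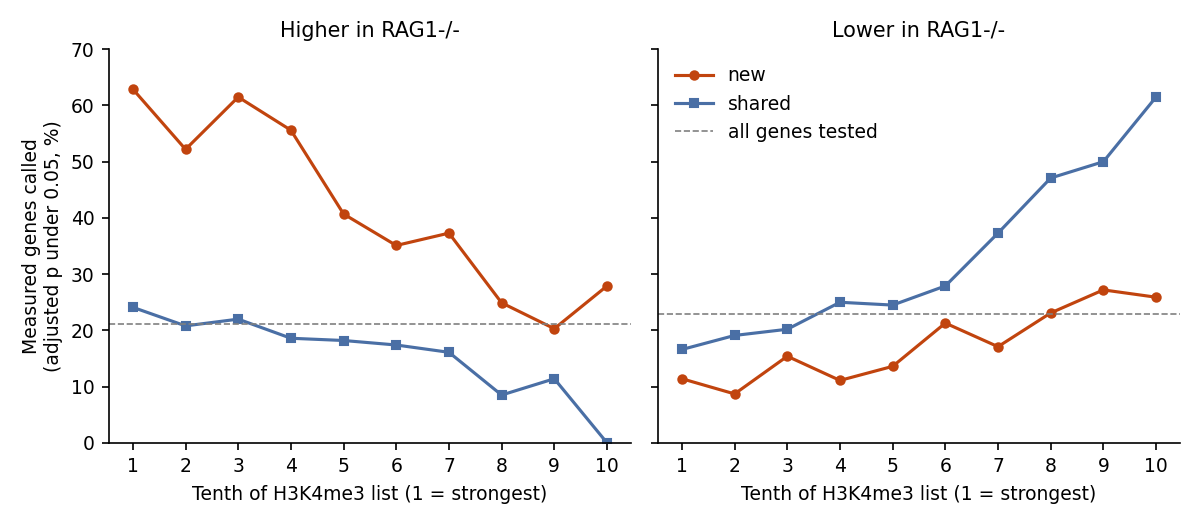
Share of measured genes called higher (left) or lower (right) in RAG1-/- than in EBF-/- cells (limma, adjusted p under 0.05), by decile of the H3K4me3 list of the linked peak, for new and shared peaks; dashed lines give the share over all genes tested. In decile 1, 62.9% of genes with new peaks and 24.1% of genes with shared peaks were higher.

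Expression also varied with the marks that EBF-/- cells held at the site. Of 403 genes linked to new peaks that were unmarked in EBF-/- cells, 165 were higher (40.9%) and 84 lower (20.8%), and among the rank-matched ones 55 of 100 were higher, with a median of 1.04. Where EBF-/- cells had H3ac and H3K4me2, 22.9% of 782 genes were higher and 24.4% lower, close to all genes, though 40.1% of 227 were higher in the rank-matched part. Sites with H3ac and no H3K4me2 had 13 of 76 genes higher and 26 lower. Of 10 measured genes linked to rank-matched new peaks with H3K27me3 in EBF-/- cells, 8 were higher and none lower, and over all new peaks with that mark 13 of 35 were higher (37.1%) and 6 lower (17.1%). New peaks with an EBF1 peak had 23 of 52 genes higher (44.2%) and 12 lower (23.1%), and those with E2A had 120 of 356 higher (33.7%) and 85 lower (23.9%). With FOXO1, 14 of 46 were higher (30.4%) and 12 lower (26.1%), and with CTCF 92 of 354 were higher (26.0%) and 87 lower (24.6%), both near the 28.6% and 22.6% of all genes linked to new peaks. Transcripts not above background in either EBF-/- sample were 12.3% of genes with new peaks, 2.09% of those with shared peaks and 7.41% of all genes.

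Genes of the pre-B cell receptor were among the clearest members. Of the 15 genes of that list 6 were linked to new peaks, 5 of them rank-matched, and all 6 rose in RAG1-/- cells. The rise was not confined to genes with new peaks: of 6 measured list genes without a linked H3K4me3 peak, 4 were higher and 1 lower. Vpreb3 encodes a protein that helps assemble the receptor and lay 11879 bp from the nearest EBF-/- H3K4me3 peak (chr10:75392142-75393141, mm8, score 326). Its signal was 17.70 and 17.42 in RAG1-/- cells, against 5.44 and 5.56 in EBF-/- cells, a difference of 12.24 ± 2.96 (SE; limma adjusted p = 0.0302). Igll1 (chr16:16776585-16777584, mm8, score 274) had 15.94 and 15.77 in RAG1-/- cells, against 5.24 and 5.41 in EBF-/- cells (10.65 ± 1.93; limma adjusted p = 0.0135). Vpreb2, the partner of lambda5 in the surrogate light chain, had the weakest H3K4me3 peak of the 6 (score 49), with an E2A peak in RAG1-/- cells and signals of 14.55 and 14.22 in RAG1-/- cells, against 4.94 and 5.69 in EBF-/- cells (9.16 ± 1.56; limma adjusted p = 0.0114). Its sequence is close to that of Vpreb1, so its probe may read both. None of these 3 sites had H3K4me1, H3K4me2 or H3ac called in EBF-/- cells.

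The signalling chains showed the same pattern. Cd79a (chr7:24606298-24607297, mm8, score 321), the Ig-alpha chain, had 10.47 and 10.23 in RAG1-/- cells, while both EBF-/- samples (3.12 and 3.11) were not well above background, so it was at least 24.5-fold higher (limma adjusted p = 0.00332). Cd79b, the Ig-beta chain, had a peak of score 382 and 17.28 and 16.77 in RAG1-/- cells, against 7.63 and 7.17 in EBF-/- cells (9.67 ± 0.85; limma adjusted p = 0.0021). Unlike Cd79a, which was unmarked, Cd79b had weak H3K4me2 (score 25) and H3ac (15) peaks in EBF-/- cells. No EBF1 or FOXO1 peak overlapped any of the 6 H3K4me3 peaks, and 5 of them had an H3ac peak in RAG1-/- cells, all but that of Igll1. In each of the 5 genes described both EBF-/- values lay below both RAG1-/- values, again a weak criterion with 2 samples each. The share of all genes that meet it was not counted. Vpreb3, Igll1 and Vpreb2 were well above background in only 1 of the 2 EBF-/- samples. In 3 of them the call was lost in some fits that left out 1 sample. Vpreb3 lost it without EBF-/- replicate 1, EBF-/- replicate 2 or RAG1-/- replicate 1. Igll1 lost it without EBF-/- replicate 1 or RAG1-/- replicate 1, and Vpreb2 without EBF-/- replicate 1. The 2 samples of each of these genotypes were close. The E2A-/- samples of the same fit were far apart (Vpreb3 14.35 and 3.84, Igll1 11.13 and 4.33, Vpreb2 10.43 and 5.33). The difference of Igll1 was 8.83 without EBF-/- replicate 1 and 10.53 without E2A-/- replicate 1. How far the E2A-/- samples account for the lost calls was not tested.

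**Figure D5:**
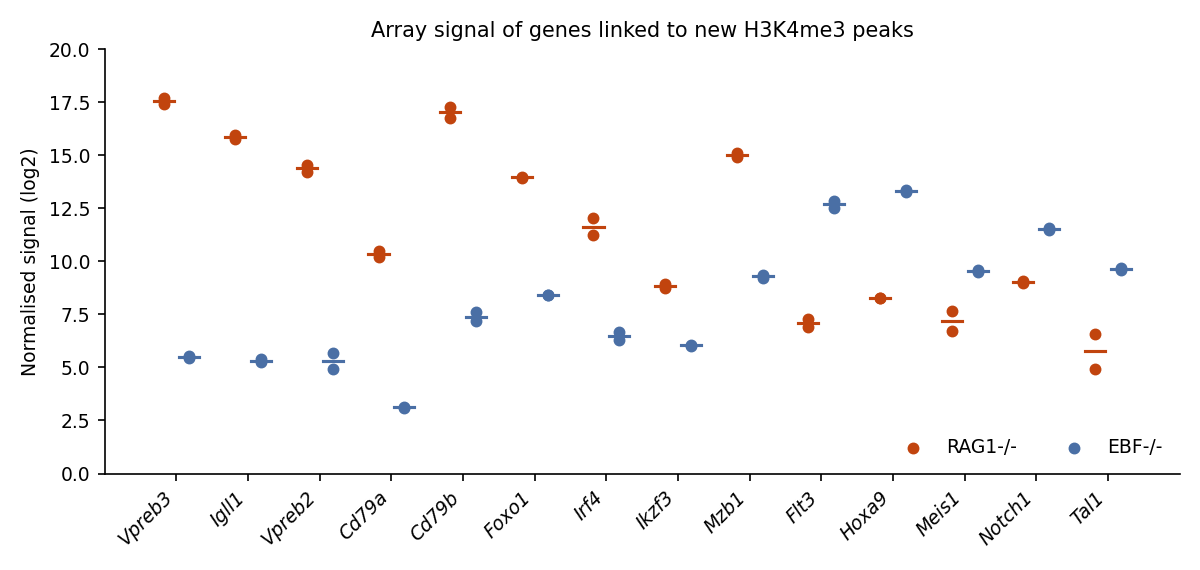
Array signal (log2, quantile normalised) of 14 genes linked to new H3K4me3 peaks, with 1 point for each of the 2 RNA samples of RAG1-/- and EBF-/- cells and a line at their mean. Pre-B receptor genes (left) lay between 10.23 and 17.70 in RAG1-/- cells and between 3.11 and 7.63 in EBF-/- cells, whereas the 5 progenitor genes (right) were lower in RAG1-/- cells.

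Of 18 B-lineage factors 7 were linked to new peaks, and 4 rose, 1 fell and 2 missed the threshold. Of the 10 factors without a linked H3K4me3 peak 9 were higher. Foxo1 itself was one of those that rose. The probe rule linked it to a weak peak (chr3:52419403-52420402, mm8, score 18) with E2A bound in RAG1-/- cells and H3K4me2 alone in EBF-/- cells. That peak lay 13788 bp from the probe and 62599 bp from the nearest EBF-/- peak. A stronger new peak on the same chromosome (chr3:52356829-52357828, mm8, score 335) lay 25 bp from an EBF-/- peak and was not linked to Foxo1. Which of them lies at the Foxo1 start could not be checked. Foxo1 had 13.94 and 13.97 in RAG1-/- cells, against 8.41 and 8.40 in EBF-/- cells (5.58 ± 0.44; limma adjusted p = 0.00168). Irf4, a regulator of light chain opening, had a strong peak (score 380) over H3K4me2 alone, and signals of 12.03 and 11.23 in RAG1-/- cells, against 6.65 and 6.30 in EBF-/- cells (5.19 ± 0.70; limma adjusted p = 0.00601). Ikzf3, which encodes Aiolos, was higher by 2.83 ± 0.24 (limma adjusted p = 0.0019), was well above background in 1 of 2 EBF-/- samples, and differed by 5.17 under normexp background correction. Irf8 was higher by 1.07 ± 0.19 (adjusted p = 0.0126), a call lost without EBF-/- replicate 1 (0.051) or 2 (0.0761).

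Sox4 and Myb had strong new peaks without a matching rise. Sox4 (score 386, 5251 bp from an EBF-/- peak) stood at 12.34 and 12.12 in RAG1-/- cells, against 12.56 and 12.57 in EBF-/- cells (-0.34 ± 0.10; limma adjusted p = 0.0478), and its call was lost on leaving out any sample but RAG1-/- replicate 1 (adjusted p 0.0631 to 0.317). Sox4 also had a shared peak and H3ac (score 172) in EBF-/- cells. Myb (score 356, 222 bp from an EBF-/- peak) had 15.60 and 15.20 in RAG1-/- cells, against 15.69 and 15.54 in EBF-/- cells, which did not pass the test (-0.22 ± 0.15; limma adjusted p = 0.302) except without RAG1-/- replicate 1 (0.0307), and stood at 0.03 under 75th percentile scaling. Runx1 differed by -0.35 ± 0.14 (adjusted p = 0.107). Pax5, Ebf1, Pou2af1 and Lef1, all higher in RAG1-/- cells, had no H3K4me3 peak linked by the probe rule and could not be placed.

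Of the 18 B cell surface genes 7 were linked, and 3 rose, 2 fell and 2 missed the threshold. All 4 measured genes of this list without a linked H3K4me3 peak were higher. Cd22, an inhibitory coreceptor, had E2A and EBF1 peaks (score 20 each) and no mark in EBF-/- cells, and was at least 21.1-fold higher, with 11.03 and 9.22 in RAG1-/- cells and 2.90 and 4.58 in EBF-/- cells (limma adjusted p = 0.0246). That call was lost without RAG1-/- replicate 1 (0.111), EBF-/- replicate 1 (0.124) or EBF-/- replicate 2 (0.0509). Fcrla, an Fc receptor relative of B cells, was higher by 4.97 ± 0.62 (limma adjusted p = 0.00475). Cd74, the invariant chain, and Ptprc, which encodes CD45, fell by 1.48 and 1.21 on the log2 scale (limma adjusted p = 0.00127 and 0.0035), at peaks of scores 47 and 23. Cd40 and Il2ra did not pass the test (adjusted p = 0.235 and 0.239).

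Among recombination genes 4 of 11 were linked. Dntt, which adds bases at receptor junctions, had a rank-matched peak (score 136) and 15.12 and 16.46 in RAG1-/- cells, against 12.60 and 12.52 in EBF-/- cells (3.23 ± 0.31; limma adjusted p = 0.00253). Hmgb1, a chromatin protein that helps the recombinase, was higher by 0.66 ± 0.16 (adjusted p = 0.0315), a call lost without EBF-/- replicate 1 (0.176) or 2 (0.0909). Rag1 was higher by 1.15 ± 0.27 (adjusted p = 0.0284), a call lost without either sample of RAG1-/- or EBF-/- cells (0.0557 to 0.202). Xrcc6, which encodes Ku70, did not pass the test (adjusted p = 0.0747), though it did without RAG1-/- replicate 2 (0.0186). None of the 20 cell cycle genes was linked to a new peak, while 15 were linked to shared peaks and 12 of those were higher in RAG1-/- cells. Of all measured genes linked to shared peaks 19.8% were higher.

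New peaks also lay at genes that were lower in RAG1-/- cells. Of 12 progenitor genes 6 were linked, 2 of them to rank-matched peaks, and all 5 that were measured fell. Flt3, the receptor for the FLT3 ligand, which the RAG1-/- culture did not receive, had 3 new peaks, the strongest of score 27, and 7.30 and 6.92 in RAG1-/- cells, against 12.50 and 12.87 in EBF-/- cells (-5.57 ± 0.10; limma adjusted p = 0.000371). Hoxa9, a homeobox gene of progenitors, had a peak of score 45 with EBF1 and CTCF, and 8.26 and 8.29 in RAG1-/- cells, against 13.29 and 13.37 in EBF-/- cells (-5.06 ± 0.12; limma adjusted p = 0.000371). Meis1 (-2.38 ± 0.30) and Notch1 (-2.48 ± 0.10) had rank-matched peaks, of scores 127 and 201, and that of Notch1 lay 231 bp from an EBF-/- peak. Tal1 fell by 3.90 on the log2 scale at peaks of score 30 or less and was well above background in 1 of 2 RAG1-/- samples.

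Few genes of other lineages were linked, and not all of them passed the test. Of the T lineage list 4 of 13 were linked: Zap70 (-2.33 ± 0.23) and Cd247 (at least 32.2-fold lower) passed the test, Thy1 did not (12.50 and 12.73 in RAG1-/- cells, against 14.09 and 14.12 in EBF-/- cells; limma adjusted p = 0.0747) except without E2A-/- replicate 1 (0.00216) or 2 (0.00232), and Cd3d was not measured. Tbx21, the 1 linked NK gene, was at least 4.83-fold lower (adjusted p = 0.0106), a call lost on leaving out any 1 of the RAG1-/- or EBF-/- samples (0.0588 to 0.114). Itgam, the 1 linked myeloid gene, did not pass the test (-0.55 ± 0.44; adjusted p = 0.361) except without RAG1-/- replicate 1 (0.00822), and differed by 0.20 without RAG1-/- replicate 2. Of the stromal list Pdgfrb fell by 5.22 on the log2 scale and Cxcl12 was not measured. The peak of Cd247 was rank-matched (score 126), and the other new peaks of these genes scored between 17 and 39.

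Beyond the lists, the largest rises among linked genes fell on Cplx2, Grb7, Arl5c, Mpzl2, Car13, Scd1 and Otub2 beside the receptor genes. Grb7, a signalling adaptor, had 14.04 and 14.13 in RAG1-/- cells and was not well above background in EBF-/- cells, so it was at least 327-fold higher (limma adjusted p = 0.00882). Arl5c, a small GTPase gene, was at least 721-fold higher (adjusted p = 0.0217), a call lost without EBF-/- replicate 1 (0.11) or RAG1-/- replicate 1 (0.0827). Car13, a carbonic anhydrase gene, was at least 89.1-fold higher (adjusted p = 0.00328), Scd1 at least 151-fold (0.00397) and Mpzl2, an adhesion protein gene, at least 177-fold (0.00393). Otub2, a deubiquitinase gene, was at least 81.9-fold higher (0.0139), a call lost without EBF-/- replicate 1 (0.0687) or RAG1-/- replicate 1 (0.058). Cplx2 rose by 11.95 ± 2.12 (0.0127), a call lost without the same samples (0.0619 and 0.0504). All 7 genes had a rank-matched new peak (scores 92 to 372), and the strongest new peak of each held no EBF1 or FOXO1 peak.

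The largest falls fell on Ccr9, Esm1, Pdcd1 and Klhl30. Ccr9, a chemokine receptor of lymphoid precursors, had 7.53 and 5.65 in RAG1-/- cells, against 15.68 and 15.72 in EBF-/- cells (-9.11 ± 0.44; limma adjusted p = 0.000687). Esm1 was at least 180-fold lower (adjusted p = 0.000373). Pdcd1, the gene of the inhibitory receptor PD-1, differed by -7.44 ± 0.90 (0.00446; well above background in 1 of 2 RAG1-/- samples) and Klhl30 by -6.76 ± 0.18 (0.000371). Peak scores at these 4 genes were between 24 and 53, all below the rank cut.

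The highest scores of the new set were not always met by a large change. S1pr4, a sphingosine-1-phosphate receptor gene of lymphocytes, had the strongest new peak (chr10:80901561-80902560, mm8, score 485, rank 2 of the whole list), which lay 1870 bp from an EBF-/- peak. It had 10.22 and 10.20 in RAG1-/- cells, against 6.57 and 7.14 in EBF-/- cells (3.38 ± 0.40; limma adjusted p = 0.00429). Slc1a5, a glutamine transporter gene, and Syvn1, a ubiquitin ligase gene of the endoplasmic reticulum, rose by 2.74 ± 0.22 and 2.01 ± 0.20 (adjusted p = 0.00168 and 0.00293), both at peaks within 1 kb of an EBF-/- peak. Pim1, a kinase gene downstream of IL-7, had a peak of score 402, unmarked in EBF-/- cells, but 11.04 and 11.65 in RAG1-/- cells, against 10.82 and 11.26 in EBF-/- cells (0.30 ± 0.28; adjusted p = 0.432), which passed only without RAG1-/- replicate 1 (0.00862) and was -0.17 without RAG1-/- replicate 2. The third highest peak (chr11:3092729-3093728, mm8, score 428) was linked to no gene and overlapped a mock immunoprecipitation peak of score 31 and a CTCF peak of score 90.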

How the data were processed

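Histone marks and factors were measured by ChIP-seq, and RNA by 2-colour Agilent arrays (4 arrays, 6 samples). Peak lists came as deposited by the authors, made with HOMER on mm8 per the submitters' processing notes. Their peak score is a whole number deposited by the authors on an unstated scale; reads per library are not given in the sources used here. The array intensity deposited by the authors is the scanner software's processed signal (Feature Extraction, version 9.5.3.1).

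Peaks sharing at least 1 bp were called overlapping, and shares have Wilson 95% intervals (counting error only). A peak took the gene of the nearest named probe within 20 kb (mm8, array design). The log2 of the deposited signal was quantile normalised and fitted with limma 3.58.1 (R 4.3.3) on group and dye, with array as a random block (correlation -0.049) and a trend; spots of a probe were averaged, probes well above background in every sample of at least 1 group were kept (22124 of 41099), and the kept probe with the highest mean stood for its gene (12665 genes), with Benjamini-Hochberg adjustment at 0.05. For 56 genes, probes were called in opposite directions. A bound (at least N-fold) is given where every array of the dim group was not well above background. Overlaps used Python 3.11.15 with pandas 2.3.3 and NumPy 2.4.6, and the fit was tested on simulated data. Named were the 12 largest called changes in each direction, all linked list genes, the genes of the 10 highest scores and those of up to 10 peaks with 3 factors. Members and lists were chosen with earlier results of these data known. Alternatives changed the overlap, list length, probe distance, normalization, filter, dye term, block and samples. Same-numbered samples share only a number. A gene that the naming rule picks is not reported here.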

Additional observations from a re-analysis of the deposited data

How the results depend on the processing

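The count of new peaks fell to 891 at equal list length and to 264 in the upper part of the list by score (6602 peaks), and was 4414 with 1 kb also counted as shared. At equal list length, the EBF-/- marks at new peaks were H3K4me1 13.0%, H3K4me2 72.4% and H3ac 61.4%, and RAG1-/- E2A was 16.7%, EBF1 2.58% and CTCF 18.4%. Counting marks and factors within 1 kb gave H3K4me1 15.5%, H3K4me2 77.3%, H3ac 49.3%, H3K27me3 3.5% and E2A 9.34% in EBF-/- cells, and E2A 27.8%, EBF1 4.7%, FOXO1 4.64% and CTCF 27.8% in RAG1-/- cells. With the upper part by score of each mark's or factor's list alone, H3K4me1 was 6.33%, H3K4me2 53.7%, H3ac 3.7%, H3K27me3 1.98% and E2A 4.21% in EBF-/- cells, and E2A was 12.5%, EBF1 1.92%, FOXO1 1.54% and CTCF 11.4% in RAG1-/- cells. The rank cut also changed which peaks were in the set, and the cause of these shifts was not tested. Linked genes called numbered 228 higher (28.7%) and 170 lower (21.4%) within 5 kb, and 187 (42.9%) and 69 (15.8%) at equal list length. Among all genes tested 21.1% were higher and 22.9% lower. Leaving out 1 RNA sample gave 229 to 444 higher and 175 to 377 lower; the lowest counts, 229 and 175, came without EBF-/- replicate 1, and without RAG1-/- replicate 1 they were 379 and 375. With the replicate block the counts were 446 (28.4%) and 345 (21.9%), against 20.6% and 22.4% of all genes. The pairing check gave correlations of 0.014, 0.164 and -0.4, so the numbers do not pair the samples. With that block Rag1 lost its call (limma adjusted p = 0.0916). Peaks on the 5′ side of the probe, chosen after seeing the data, gave 392 higher (31.9%) and 262 lower (21.3%), against 21.1% and 22.9% of all genes. No called gene changed direction; of genes not called, Itgam (0.20) and Pim1 (-0.17) changed sign without RAG1-/- replicate 2, Pim1 (-0.01) and LOC546100 (-0.27) without EBF-/- replicate 1, and Myb under 75th percentile scaling (0.03) and without RAG1-/- replicate 2 (0.01). Between all peaks and equal list length, the order of new and shared peaks turned for RAG1-/- H3K4me2 and CTCF. Normexp background correction shrank the log2 differences of dim genes by more than a factor of 1.5, among them Cd79a (3.81), Car13 (5.59), Otub2 (5.41), Cd22 (3.66), Esm1 (-5.18), Pdcd1 (-4.79), Cd247 (-2.90), Tal1 (-2.37) and Tbx21 (-0.99), and all kept their calls. Arrays limit precision through 2 samples in each group, and ChIP-seq through 1 library.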
